A study of Bombyx mori with 12 samples.

Results

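The comparison is between silkworm larvae (Bombyx mori) that were tetramolters, that is, larvae with an increased number of larval molts, of batch 2 (3 libraries) and of batch 1 (3 libraries), 6 of the 12 libraries of the series. The other 6 libraries are trimolters, 3 of batch 2 and 3 of batch 1, and serve here to ask whether the same batch difference is present in the other molting type. All 12 libraries come from the dominant trimolter strain Guangri 3, spelled Gurangri 3 in the sample labels, and from the head and thorax pooled (cephalothorax) at the molt of the third instar. The groups were assigned from the molting type and the batch given for each library. The series text describes a spring rearing and an autumn rearing at a higher temperature, with a different photoperiod, but no label states the season of a batch, so season, temperature, photoperiod, exact molt stage and sequencing batch cannot be told apart in this comparison. The series text gives 3 silkworms per molting type and season, and no label ties a library to an animal, so the p-values measure the spread between these libraries, which may in part be technical.

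Larval molting in insects is driven by pulses of ecdysteroids, made from dietary sterols in the prothoracic glands by the Halloween cytochromes P450 and converted to 20-hydroxyecdysone, which binds the EcR and USP receptor pair. Juvenile hormone from the corpora allata, acting through MET and Kr-h1, decides whether a molt leads to another larval stage. At each molt the epidermis withdraws from the old cuticle, secretes a new one made of chitin and of many small cuticle proteins, and tans it, and the cuticle protein genes of one family often lie side by side in the genome.

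The count table held 17583 rows, of which 511 numbered loci, with 0.21% to 0.264% of the counts, were set aside, leaving 17072 genes, and 10721 passed the filter on low counts. Library totals were 14588390 to 15650612 counts among the tetramolters, so differences in depth were small. Values below are CPM (counts scaled to a common library size) with TMM factors. They take no account of gene length. Tests are edgeR quasi-likelihood tests over all tested genes with a Benjamini-Hochberg adjusted p under 0.05 as the threshold for a call. The fitted log2 fold change of batch 2 over batch 1 is written log2FC. On the first principal component of log2 CPM, with 47.7% of the variance, the batch 2 tetramolters lay at 51.9 to 65.2 and the batch 1 tetramolters at -61.8 to -59.7, at opposite ends, with all 6 trimolter libraries between them at -17.9 to 28.2. Replicates correlated at 0.978 to 0.983 in batch 2 tetramolters and at 0.990 to 0.991 in batch 1 tetramolters (Pearson, across genes, which are not independent replicates). The mean SD of log2 CPM was 0.256 in batch 2 tetramolters, 0.168 in batch 1 tetramolters and 0.408 in the batch 1 trimolters, which stand apart as the most variable group.

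Over all tested genes, 6308 differed between batch 2 and batch 1 tetramolters (58.8%), 3129 higher (29.2%) and 3179 lower (29.7%). Of these, 3118 differed by at least 1 log2 unit (29.1% of the tested genes), 1493 higher and 1625 lower, and at 3 log2 units or more 189 were higher and 107 lower. The CPM ranges of the 2 groups did not overlap for 7664 genes (71.5%). With a change this wide, a gene list is read here against these shares. The trimolters of the same batches differed in far fewer genes, 1664 (15.5%), 803 higher (7.49%) and 861 lower (8.03%), with a median size of the log2 fold change of 0.30, against 0.65 in the tetramolters. The spread of each gene was fitted over all 12 libraries, so the variable batch 1 trimolters also enter the tetramolter tests. Fitted alone, the tetramolter groups gave 7004 calls. The trimolter tests use the same shared spread, to which the less variable groups contribute. Scaling by upper quartile factors shifted the median log2 fold change of all tested genes to -0.129, against -0.02 with TMM, and left 42.6% of the calls higher, against 49.6%, so small changes depend on the scaling.

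The labelled tissue was checked against markers of the cell types that a cephalothorax can hold. In whole tissue, fewer cells of a type and less RNA per cell cannot be told apart. Muscle genes fell: 6 of 10 tested markers were lower and 1 higher in batch 2 tetramolters, and their summed level was 26940 to 33040 CPM in batch 2 tetramolters, against 61320 to 62150 CPM in batch 1 tetramolters, with no overlap. The called share of these markers was 70%, against 58.8% of all tested genes. TpnI, the inhibitory subunit of troponin, had 3296, 3158 and 2662 CPM in batch 2 tetramolters, against 10270, 9228 and 9151 CPM in batch 1 (log2FC -1.65, SE 0.25, adjusted p = 0.000191). Projectin, a giant protein of the insect sarcomere, had 9.78, 14.2 and 12 CPM in batch 2 tetramolters, against 69.5, 76 and 68.4 CPM in batch 1 (log2FC -2.57, SE 0.21, adjusted p = 4.77e-06). Both genes were thus lower in each batch 2 library than in each batch 1 library, while tropomyosin (Tm) was the 1 muscle gene that rose, by 0.49 log2 units. Midgut markers summed to 8938 to 10940 CPM in batch 2 tetramolters, against 14540 to 16700 CPM in batch 1 tetramolters, but moved both ways: 3 aminopeptidase N genes of 5 tested markers rose and IIM1 fell (log2FC -1.27, SE 0.26, adjusted p = 0.00147). Their called share was 80%. The nervous system genes split, 3 higher and 5 lower of 14, a called share of 57.1%. Elav, a neuronal RNA-binding protein, had 26.8, 28.6 and 30.9 CPM in batch 2 tetramolters, against 26.3, 20.2 and 22.6 CPM in batch 1 (log2FC 0.32, SE 0.13, adjusted p = 0.056). Of 4 haemocyte genes 1 rose and 1 fell, a called share of 50%, below that of all tested genes. Their summed level was 2358 to 2912 CPM in batch 2 tetramolters, against 1931 to 2048 CPM in batch 1 tetramolters. Of the 2 tracheal genes 1 rose, and they summed to 40 to 44.4 CPM in batch 2 tetramolters, against 36.9 to 39.9 CPM in batch 1 tetramolters. The silk gland genes were at or near 0 CPM in every tetramolter library, P25 at 0.0648 CPM or less in batch 2, and at 0.973 CPM or less in 2 of the batch 1 libraries and 1.57 CPM in the other. P25, with 2 counts over the batch 2 libraries and 49 over the batch 1 libraries, was called lower (log2FC -4.50, SE 1.11, adjusted p = 0.000454), and the other tested silk gland gene was not called. In the trimolters the silk gland genes together summed to 0.135 to 1.06 CPM in batch 2 and 0.391 to 0.747 CPM in batch 1. P25 thus passed the low-count filter mainly through the batch 1 tetramolters, and its call is not read as support. The fat body storage protein genes were low, summing to 9.20 to 62.5 CPM in batch 2 tetramolters, against 2.59 to 4.24 CPM in batch 1 tetramolters, and both tested ones, Sp2 (log2FC 6.06, adjusted p = 0.00538, or 4.68 without batch 2 replicate 1) and Sp1 (log2FC 1.43, adjusted p = 0.00694), were called higher. The part of these shifts in tissue makeup in the gene groups below was not tested.

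The cuticle protein genes made up the largest block of rising genes. Of 207 in the files, 161 were tested, and 115 of them were higher and 9 lower in batch 2 tetramolters, a called share of 77.0% against 58.8% of all tested genes, and their median log2 fold change was 1.94 against -0.02. Their summed level was 109500 to 124700 CPM in batch 2 tetramolters, against 52990 to 56100 CPM in batch 1 tetramolters, which is 12.2% ± 0.735 and 5.09% ± 0.15 of the counts (SD, n = 3 each). The CPR genes, whose products bind chitin through the Rebers and Riddiford domain, had 72 higher and 5 lower of 97 tested (median 2.12), with 38 further CPR genes too low to test. Among the glycine-rich CPG genes 18 rose and 2 fell of 24, among the CPH genes 18 rose and 2 fell of 32, 2 of 3 CPT genes rose, and all 3 tested CPFL genes rose. Of the 79 genes with a symbol that rose by at least 3 log2 units, 55 were cuticle protein genes. Genes that pass the low-count filter through 1 group alone differ by construction, and reads of near-identical cuticle paralogs could have been split between copies, and how multiply mapped reads were handled is not stated in any label.

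The genes with the largest changes were picked among called genes with a symbol, a mean of at least 1 log2 CPM over the tetramolter libraries, and groups that do not overlap. Of the 12 such genes that rose most, 11 encode cuticle proteins. CPR39 had 666, 1830 and 918 CPM in batch 2 tetramolters, against 4.64, 0.927 and 0.764 CPM in batch 1 (log2FC 9.06, SE 0.99, adjusted p = 7.98e-05). Its batch 1 replicate 1 lay above the other batch 1 libraries, and without that library the log2 fold change was 10.39. CPR104 had 251, 288 and 253 CPM in batch 2 tetramolters, against 0.273, 0.999 and 1.46 CPM in batch 1 (log2FC 8.17, SE 0.53, adjusted p = 1.57e-06). CPH7 had 1783, 2707 and 2594 CPM in batch 2 tetramolters, against 19.7, 18.1 and 18.6 CPM in batch 1 (log2FC 6.97, SE 0.50, adjusted p = 6.66e-06). In batch 1 tetramolters CPR104 was thus close to 0 CPM, and CPH7 was not. CPR71 had 379.7, 947 and 660.1 CPM in batch 2 tetramolters, against 5.32, 3.50 and 2.99 CPM in batch 1 (log2FC 7.39, SE 0.79, adjusted p = 6.24e-05). CPR12 had 123, 118 and 107 CPM in batch 2 tetramolters, against 0.477, 0.927 and 1.04 CPM in batch 1 (log2FC 7.14, SE 0.59, adjusted p = 2.76e-06). CPR105 had 70.6, 98.4 and 80.2 CPM in batch 2 tetramolters, against 0.955, 0.214 and 0.764 CPM in batch 1 (log2FC 6.98, SE 0.47, adjusted p = 1.14e-06). In none of these genes did the groups overlap. CPR95, CPG28, CPG3, CPR67 and CPR60 rose by 6.14 to 7.25 log2 units, with a wider spread among the batch 2 libraries, replicate 2 being the highest each time. CPG3 had 35.8, 221 and 64.8 CPM in batch 2 tetramolters, against 1.16, 0.785 and 0.695 CPM in batch 1, and its log2 fold change was 6.91, or 5.83 without batch 2 replicate 2. For CPG28 it was 7.05, or 7.67 without batch 1 replicate 2. VAP, the remaining gene of the 12, had 27.7, 54.7 and 44.9 CPM in batch 2 tetramolters, against 0.614, 0.571 and 0.556 CPM in batch 1 (log2FC 6.17, SE 1.14, adjusted p = 0.00024), and missed the threshold with limma-voom (adjusted p = 0.0575).

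**Figure D1:**
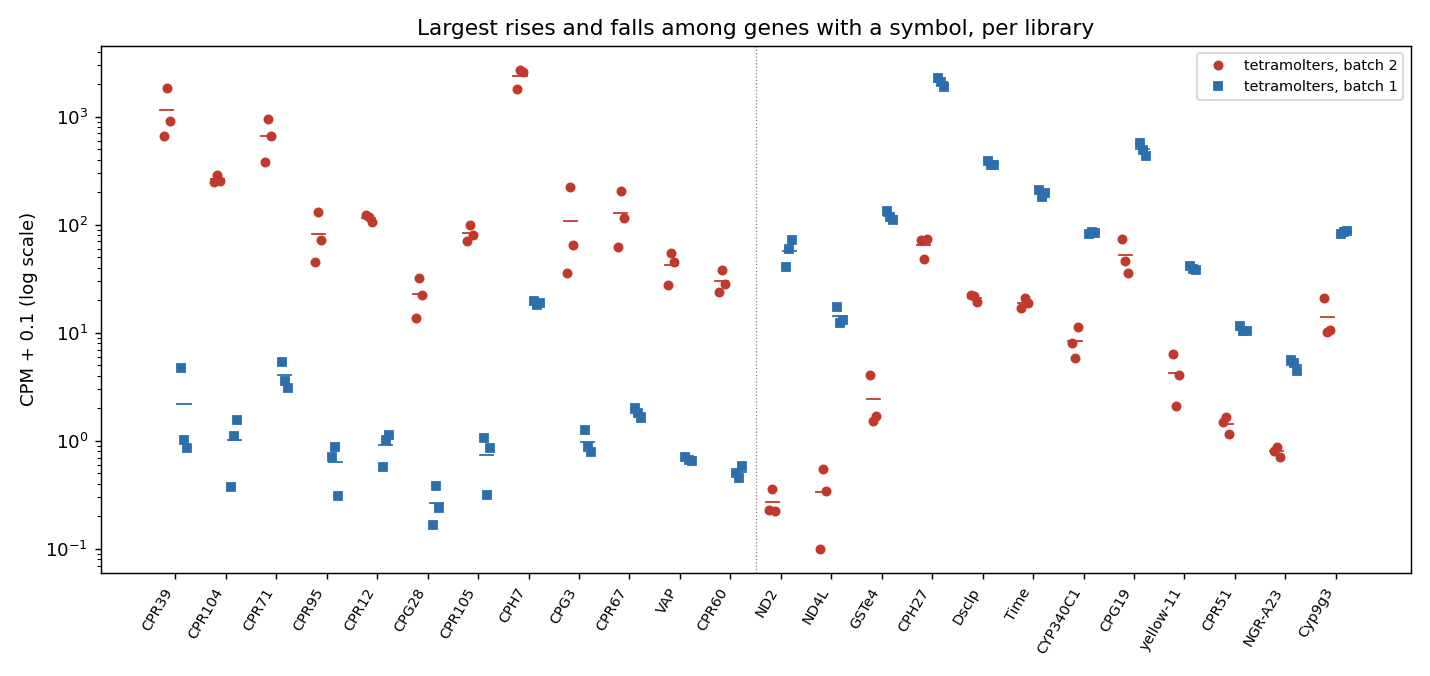
CPM plus 0.1 on a log axis in each tetramolter library, for the 12 called genes that rose most (left of the dotted line) and the 12 that fell most (right), among those with a symbol, a mean of at least 1 log2 CPM over the tetramolter libraries and groups that do not overlap; circles are the 3 batch 2 libraries, squares the 3 batch 1 libraries and bars the means. The batch 2 libraries spread more than the batch 1 libraries for most cuticle genes.

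Cuticle genes that were well above 0 in both batches also rose. CPR38 had 11550, 9456 and 9284 CPM in batch 2 tetramolters, against 1120, 1076 and 1070 CPM in batch 1 (log2FC 3.21, SE 0.17, adjusted p = 8.28e-07). CPR3 had 9575, 7855 and 7710 CPM in batch 2 tetramolters, against 2008, 1891 and 1888 CPM in batch 1 (log2FC 2.12, SE 0.13, adjusted p = 1.34e-06). CPG5 had 879.5, 834 and 834 CPM in batch 2 tetramolters, against 70, 61.6 and 62 CPM in batch 1 (log2FC 3.72, SE 0.18, adjusted p = 8.27e-07). CPG4 had 8000, 5644 and 5084 CPM in batch 2 tetramolters, against 799.8, 855 and 894 CPM in batch 1 (log2FC 2.88, SE 0.20, adjusted p = 2.21e-06). CPR4 rose by less, with 12950, 10830 and 11090 CPM in batch 2 tetramolters, against 8564, 7873 and 7601 CPM in batch 1 (log2FC 0.54, SE 0.15, adjusted p = 0.00821). CPH4 had 3852, 3463 and 4345 CPM in batch 2 tetramolters, against 3921, 3882 and 3874 CPM in batch 1, overlapping ranges and a log2 fold change of -0.00 (adjusted p = 0.997). Thus the rise was broad across the families and varied from gene to gene. CPR100 had 545 counts over the batch 2 tetramolters and 1 count over the batch 1 tetramolters, a ratio of 496 with an exact 95% interval for counting error of 88.6 to 19600, and LOC100862708, a gene without a symbol, had 617 counts in batch 2 and 1 count in batch 1. Both were chosen after their values were seen, and no gene showed the opposite pattern of at least 300 counts in batch 1 and at most 3 in batch 2.

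A few cuticle genes moved the other way. CPH27 had 72, 48 and 73.6 CPM in batch 2 tetramolters, against 2299, 2078 and 1873 CPM in batch 1 (log2FC -5.01, SE 0.50, adjusted p = 2.80e-05). CPG19 had 74.4, 46 and 36 CPM in batch 2 tetramolters, against 572, 486 and 432 CPM in batch 1 (log2FC -3.25, SE 0.33, adjusted p = 1.90e-05). CPR51 had 1.41, 1.55 and 1.05 CPM in batch 2 tetramolters, against 11.4, 10.2 and 10.2 CPM in batch 1 (log2FC -2.98, SE 0.29, adjusted p = 9.52e-06). All 3 were among the 12 that fell most at that level limit, and each was lower in every batch 2 library than in any batch 1 library. The other 6 that fell were CPR148, CPR56, CPR40, CPR49, CPH30 and CPG24, with log2 fold changes between -2.03 for CPG24 and -0.54 for CPR40.

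Cuticle genes that rose lay next to each other in the RefSeq gene order (assembly ASM3026992v2, used for order only). Among tested protein-coding genes, passing over untested ones, runs of neighbours that were all called higher included CPG25 to CPH32, with 9 cuticle genes of 9 and log2 fold changes of 1.95 to 7.05, and CPR91 to CPR83, with 9 of 9 and 2.12 to 5.70. CPR39 to CPR32 held 7 cuticle genes of 8 and CPR19 to CPR11 held 6 of 8. In all, 9 runs held at least 4 cuticle genes, and together 65 of them. The runs were chosen for their direction, but neighbours differed in size, as in CPR39 at 9.06 log2 units beside CPR38 at 3.21. Over all such neighbours, of 3569 neighbouring pairs with both genes called, 53.8% moved the same way, near the 50% of freely mixed higher and lower calls. There were 147 runs of 4 or more genes, 73 higher and 74 lower, and the longest lower run had 8 genes.

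**Figure D2:**
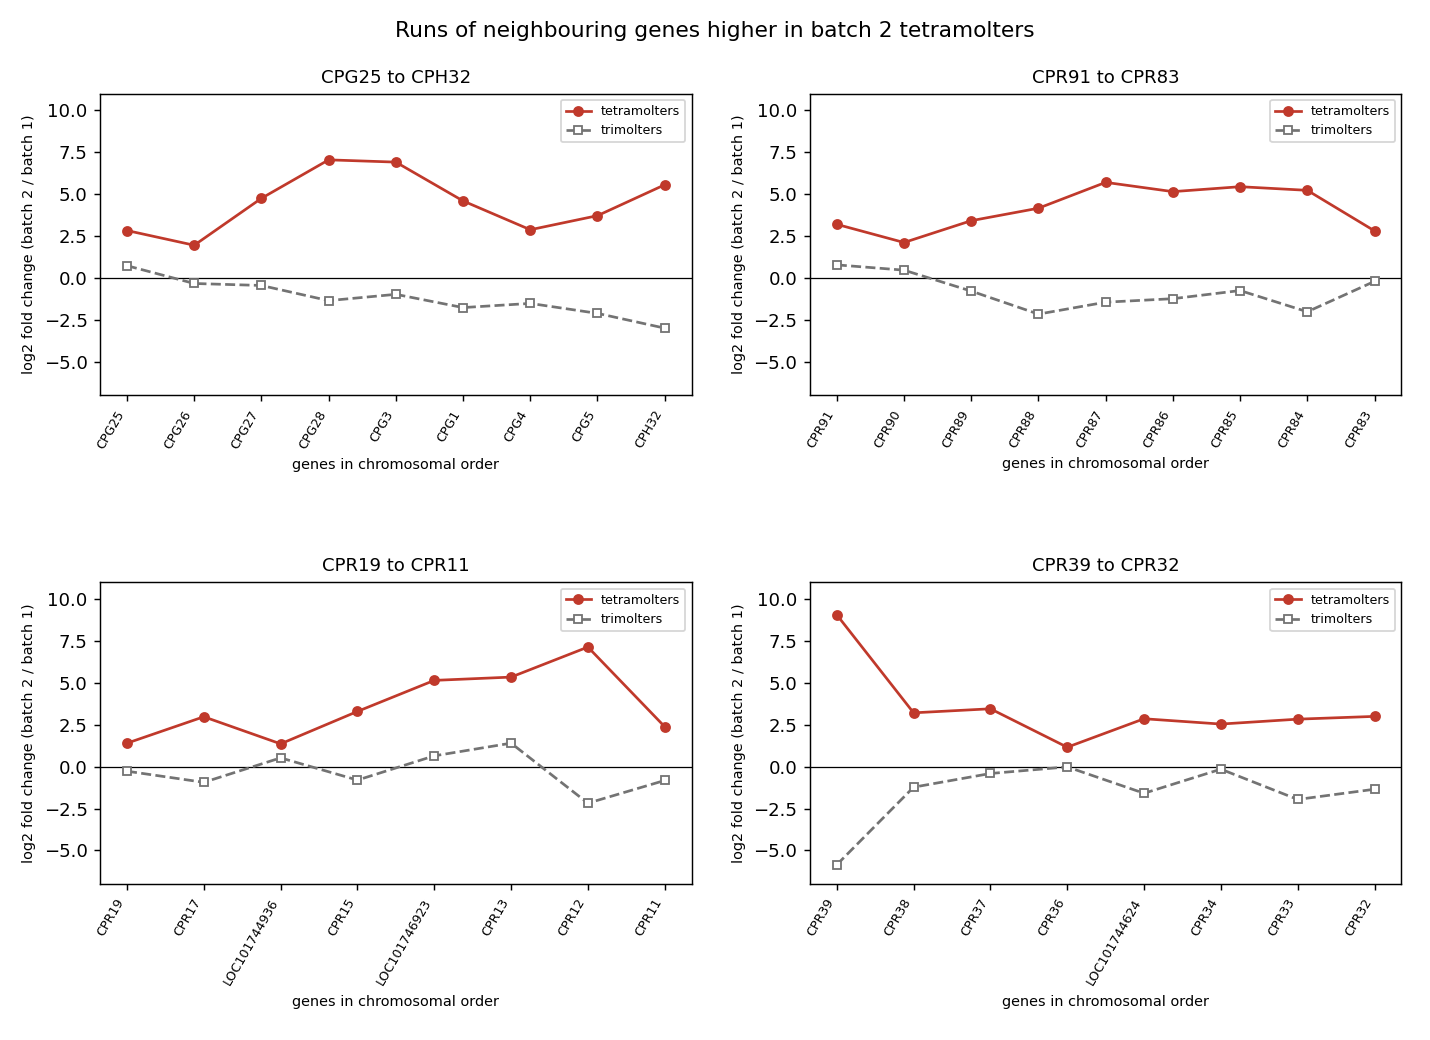
Fitted log2 fold change of batch 2 over batch 1 for neighbouring genes in chromosomal order, in 4 runs of genes that were all higher in batch 2 tetramolters; filled circles are tetramolters and open squares trimolters. The runs were chosen for tetramolter values above 0, and most trimolter values lie below it, including all 8 from CPR39 to CPR32.

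Genes around the cuticle moved in both directions. Of 9 chitin genes 4 rose and 1 fell, a called share of 55.6%, near the 58.8% of all tested genes. Chi-h, a chitinase of bacterial origin carried by Lepidoptera, had 65.3, 272 and 101 CPM in batch 2 tetramolters, against 17, 20.5 and 23 CPM in batch 1 (log2FC 2.85, SE 0.51, adjusted p = 0.000822), or 2.04 without batch 2 replicate 2, the highest library. Treh-2, a trehalase, which supplies glucose for chitin, had 90.9, 90.9 and 87.7 CPM in batch 2 tetramolters, against 33.4, 40 and 35.9 CPM in batch 1 (log2FC 1.30, SE 0.20, adjusted p = 0.000231). GlcNAcase2, a beta-N-acetylglucosaminidase of chitin breakdown, had 9.58, 10.2 and 9.79 CPM in batch 2 tetramolters, against 43.1, 46 and 46.4 CPM in batch 1 (log2FC -2.19, SE 0.24, adjusted p = 2.22e-05). Idgf, a chitinase-like growth factor, had 626, 485 and 572 CPM in batch 2 tetramolters, against 485, 479 and 484 CPM in batch 1, and did not pass the test (log2FC 0.22, SE 0.16, adjusted p = 0.248). The other 2 that rose were Chi, a chitinase (log2FC 2.07, adjusted p = 0.0153), and ChiR1, a chitinase-related gene (log2FC 1.51, adjusted p = 0.00734). Among 20 melanin and tanning genes 11 rose and 8 fell, the largest called share of the lists with 20 or more members apart from the ribosomal proteins (95%). Of these calls, that of PPO1 was lost without any 1 of the tetramolter libraries (adjusted p = 0.0562 to 0.0884). That of Lac2 was lost without batch 2 replicate 1 or 3 or any 1 of the batch 1 tetramolter libraries (0.0628 to 0.0874). Ebony, which conjugates dopamine to beta-alanine for tanning, had 33.6, 48.8 and 42.7 CPM in batch 2 tetramolters, against 8.73, 5.71 and 7.43 CPM in batch 1 (log2FC 2.51, SE 0.59, adjusted p = 0.004). The yellow family split, with Y-y (2.05) and Y-c (1.56) higher, and yellow-11 (-3.25) and yellow-12 (-1.99) lower. PPAE, the protease that activates prophenoloxidase, had 1149, 859 and 926 CPM in batch 2 tetramolters, against 2270, 2248 and 2235 CPM in batch 1 (log2FC -1.20, SE 0.15, adjusted p = 4.71e-05).

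The cytosolic ribosomal protein genes fell almost as a block. Of 79 tested genes 76 were lower and 2 higher in batch 2 tetramolters, median log2 fold change -0.97. That is a called share of 98.7%, against 58.8% of all tested genes. The groups were without overlap in all 79 of these genes, against 71.5% of all tested genes. Their summed level was 64950 to 68420 CPM in batch 2 tetramolters, against 118500 to 130300 CPM in batch 1 tetramolters, which is 7.09% ± 0.166 and 11.6% ± 0.541 of all counts (SD, n = 3 each). RpL39 had 31.8, 36.8 and 25.8 CPM in batch 2 tetramolters, against 171, 190.1 and 143 CPM in batch 1 (log2FC -2.42, SE 0.18, adjusted p = 2.84e-06). RpS29 had 76.3, 94.3 and 71.2 CPM in batch 2 tetramolters, against 419.8, 454 and 354 CPM in batch 1 (log2FC -2.34, SE 0.14, adjusted p = 1.33e-06). RpL3 had 2533, 2442 and 2471 CPM in batch 2 tetramolters, against 4899, 4830 and 4807 CPM in batch 1 (log2FC -0.97, SE 0.13, adjusted p = 7.74e-05), a fall near the median of the list. RpL7Ae was an exception, with 73.6, 77.6 and 89.7 CPM in batch 2 tetramolters, against 16.3, 14.3 and 13.6 CPM in batch 1 (log2FC 2.45, SE 0.21, adjusted p = 4.87e-06). RpL20 rose by 0.90 log2 units, and RpP0 did not pass the test (log2FC -0.12, adjusted p = 0.482). These genes were singled out after their values were seen. Translation factors moved with them, 10 of 16 lower and 3 higher, a called share of 81.2%. EF1a, which brings aminoacyl-tRNA to the ribosome, had 7658, 7362 and 7612 CPM in batch 2 tetramolters, against 11440, 11210 and 11400 CPM in batch 1 (log2FC -0.59, SE 0.16, adjusted p = 0.00832). tef2 had 4418, 4354 and 4208 CPM in batch 2 tetramolters, against 7235, 7700 and 7644 CPM in batch 1 (log2FC -0.80, SE 0.15, adjusted p = 0.000805). The median relative length of the ribosomal genes was -2.0 on the log2 scale, and that of the cuticle genes -1.70. The part of gene length, and of the muscle markers given above, was not tested.

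The nuclear genes for mitochondrial ribosomal proteins did the opposite of the cytosolic ones, with 9 of 10 higher, none lower and a median of 1.36. Of all tested genes, 29.2% were called higher. Their sum was 409 to 467 CPM in batch 2 tetramolters, against 166 to 185 CPM in batch 1 tetramolters. mRpS5 had 102, 107 and 114 CPM in batch 2 tetramolters, against 28, 30.5 and 26.1 CPM in batch 1 (log2FC 1.93, SE 0.11, adjusted p = 1.20e-06). mRpL12 had 72.8, 83.8 and 81.1 CPM in batch 2 tetramolters, against 24.5, 23.9 and 21.3 CPM in batch 1 (log2FC 1.77, SE 0.16, adjusted p = 6.08e-06). In the mitochondrial list 9 of 10 genes had groups that did not overlap, against 71.5% of all tested genes. Genes of the secretory pathway also rose, 12 of 16 with 1 lower, a called share of 81.2% against 58.8% of all tested genes. They summed to 4369 to 4624 CPM in batch 2 tetramolters, against 2078 to 2217 CPM in batch 1 tetramolters. Crt, calreticulin, a calcium-binding chaperone of the endoplasmic reticulum, had 798, 782 and 903 CPM in batch 2 tetramolters, against 174, 201 and 187 CPM in batch 1 (log2FC 2.14, SE 0.21, adjusted p = 1.19e-05). Sec61alpha, the pore through which secreted proteins enter that compartment, had 619, 822 and 779 CPM in batch 2 tetramolters, against 215, 226 and 227 CPM in batch 1 (log2FC 1.73, SE 0.22, adjusted p = 5.63e-05). Ero1, the oxidase that supplies disulfide bonds, was the 1 that fell (log2FC -1.54, SE 0.20, adjusted p = 6.84e-05).

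**Figure D3:**
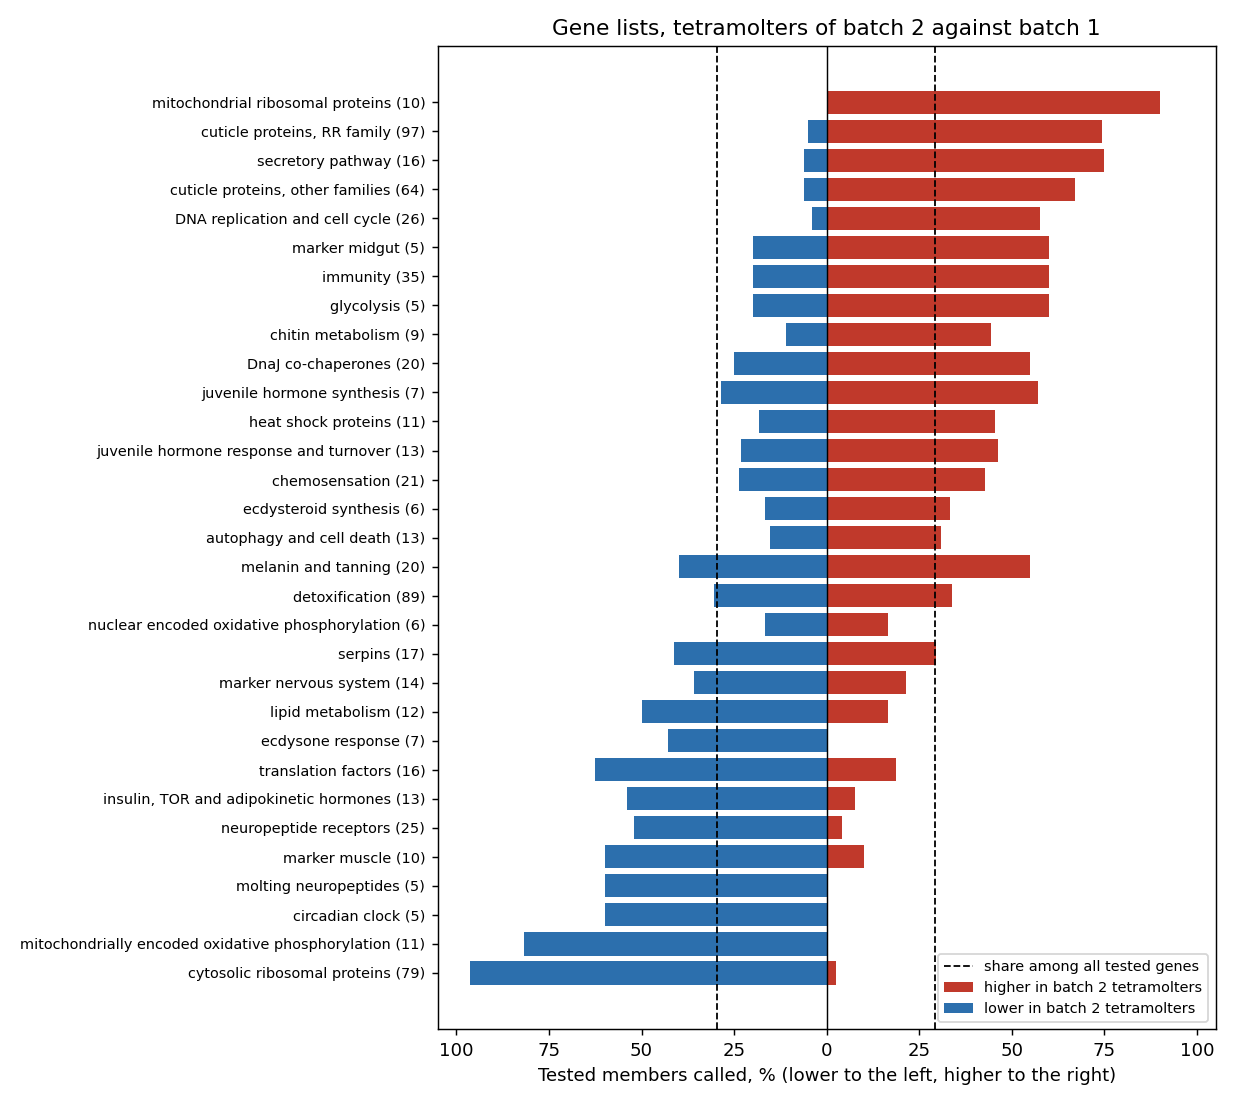
Share of tested members called higher (right, red) and lower (left, blue) in batch 2 against batch 1 tetramolters for each gene list with at least 5 tested members, whose number stands in brackets; dashed lines mark the shares among all tested genes, 29.2% higher and 29.7% lower. Mitochondrial ribosomal, secretory and cuticle genes stand at the top with mostly higher calls, and cytosolic ribosomal and mitochondrially encoded genes at the bottom with mostly lower calls.

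Of 26 DNA replication and cell cycle genes 15 rose and 1 fell (median 0.62). The called share was 61.5%, near the 58.8% of all tested genes, of which 29.2% were called higher. RnrS, the small subunit of ribonucleotide reductase, had 74.1, 53.1 and 72 CPM in batch 2 tetramolters, against 11.5, 13 and 13.6 CPM in batch 1 (log2FC 2.39, SE 0.19, adjusted p = 3.38e-06). Tyms, thymidylate synthase, had 12.9, 7.19 and 15.7 CPM in batch 2 tetramolters, against 1.84, 2.43 and 1.95 CPM in batch 1 (log2FC 2.52, SE 0.29, adjusted p = 2.88e-05). Cdc2, the mitotic kinase, had 25.6, 16.5 and 21.8 CPM in batch 2 tetramolters, against 5.46, 7.56 and 5.63 CPM in batch 1 (log2FC 1.78, SE 0.18, adjusted p = 1.39e-05). Enzymes of nucleotide supply thus showed the largest rises of this list together with cyclin E (Cyce, 2.42), which drives entry into S phase, while cyclin D (cycD) fell, with 0.575, 0.647 and 0.431 CPM in batch 2 tetramolters, against 2.12, 2.35 and 1.95 CPM in batch 1 (log2FC -1.94, SE 0.43, adjusted p = 0.002).

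Heat shock genes moved in both directions. Of 11 tested, 5 rose and 2 fell, a called share of 63.6% against 58.8% of all tested genes. Hsp90 had 1031, 1014 and 1615 CPM in batch 2 tetramolters, against 121, 111 and 118 CPM in batch 1 (log2FC 3.38, SE 0.28, adjusted p = 5.40e-06). HSP70, the stress-inducible chaperone, had 804, 1177 and 1351 CPM in batch 2 tetramolters, against 139, 142 and 151 CPM in batch 1 (log2FC 2.95, SE 0.34, adjusted p = 4.23e-05). The small heat shock gene Hsp23.7 had 50.7, 92.3 and 159 CPM in batch 2 tetramolters, against 1.91, 2.0 and 1.32 CPM in batch 1 (log2FC 5.85, SE 0.67, adjusted p = 3.08e-05). All 3 were higher in each batch 2 library than in any batch 1 library, and replicate 3 was the highest of batch 2 each time. Hsc70-4, the constitutive cognate, went the other way, with 5275, 5391 and 4964 CPM in batch 2 tetramolters, against 9872, 9822 and 9843 CPM in batch 1 (log2FC -0.92, SE 0.13, adjusted p = 0.000121). HSFd, a heat shock factor, fell by 1.24 log2 units. Hsp21.4, Hsp20.1, Hsp20.8 and Hsp70 did not pass the test. Among DnaJ co-chaperones 11 of 20 rose and 5 fell, a called share of 80%. In the trimolters HSP70 had a log2 fold change of -1.24 (adjusted p = 0.0333) and Hsp90 of -0.49 (adjusted p = 0.241), and the tetramolter change differed from the trimolter change in HSP70 (difference 4.19, adjusted p = 4.60e-05), Hsp90 (difference 3.87, adjusted p = 1.85e-05) and Hsp23.7 (difference 6.61, adjusted p = 9.21e-05).

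Immune genes were mostly higher, 21 of 35 tested against 7 lower (median 1.29), a called share of 80% against 58.8% of all tested genes. Their summed level was nevertheless lower, 4834 to 5492 CPM in batch 2 tetramolters, against 10300 to 11030 CPM in batch 1 tetramolters. BGRP4, the gene with the most counts of the list, of the family that recognises beta-glucans of microbes, had 2670, 2268 and 1805 CPM in batch 2 tetramolters, against 8071, 8853 and 8814 CPM in batch 1 (log2FC -1.93, SE 0.31, adjusted p = 0.000307). Rel, the Relish transcription factor of the IMD pathway, had 131, 309.7 and 225 CPM in batch 2 tetramolters, against 46.7, 47 and 50.7 CPM in batch 1 (log2FC 2.21, SE 0.29, adjusted p = 9.26e-05). PGRP-S1, a peptidoglycan recognition protein, had 110.2, 223 and 232 CPM in batch 2 tetramolters, against 46.3, 44.8 and 45.3 CPM in batch 1 (log2FC 2.05, SE 0.25, adjusted p = 4.30e-05). The next 3 genes were named after their values were seen. Leb3, a lebocin, had 8.56, 102 and 117 CPM in batch 2 tetramolters, against 1.64, 1.28 and 1.04 CPM in batch 1 (log2FC 5.83, SE 0.98, adjusted p = 0.000345). Attacin1 had 12.3, 134 and 78.8 CPM in batch 2 tetramolters, against 1.84, 3.14 and 1.53 CPM in batch 1 (log2FC 5.11, SE 0.77, adjusted p = 0.000213), or 4.39 without batch 2 replicate 2. Lzm, lysozyme, had 30.2, 149.7 and 136 CPM in batch 2 tetramolters, against 6.28, 6.63 and 5.49 CPM in batch 1 (log2FC 4.10, SE 0.59, adjusted p = 0.000197). In each of these 3 genes, as in Rel and PGRP-S1, batch 2 replicate 1 was the lowest of its group, yet above every batch 1 library. Serpins, inhibitors of the proteases of immune cascades, split into 5 higher and 7 lower of 17, a called share of 70.6%. Among them serpin-12 fell by 1.91 and serpin-3 by 1.35 log2 units.

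Called genes of nutrient signalling were mostly lower. Of 13 tested genes of the insulin, TOR and adipokinetic hormone list 7 were lower and 1 higher, and 23 more, mostly insulin-like bombyxins, were too low to test. The called share was 61.5%, near the 58.8% of all tested genes, of which 29.7% were called lower. InR, the insulin receptor, had 44.8, 45.5 and 39.4 CPM in batch 2 tetramolters, against 239, 245 and 239.6 CPM in batch 1 (log2FC -2.48, SE 0.21, adjusted p = 5.57e-06). rptor, the Raptor subunit of the TOR complex, had 81.7, 84.2 and 69.6 CPM in batch 2 tetramolters, against 172, 178 and 174 CPM in batch 1 (log2FC -1.15, SE 0.13, adjusted p = 2.78e-05). Rheb, the GTPase that activates TOR, had 2.17, 1.94 and 2.22 CPM in batch 2 tetramolters, against 6.14, 9.77 and 7.30 CPM in batch 1 (log2FC -1.87, SE 0.27, adjusted p = 0.000137). Each of these was lower in every batch 2 library, while TOR1 and TOR2 did not pass the test. Lipid genes fell in 6 of 12 and rose in 2, a called share of 66.7% against 58.8% of all tested genes. Lpr, the lipophorin receptor, had 88.9, 85.8 and 78.2 CPM in batch 2 tetramolters, against 224, 231 and 235 CPM in batch 1 (log2FC -1.45, SE 0.10, adjusted p = 1.90e-06). DESAT4, a fatty acid desaturase, had 111, 115 and 119 CPM in batch 2 tetramolters, against 310.3, 294 and 305 CPM in batch 1 (log2FC -1.40, SE 0.10, adjusted p = 2.19e-06). Fatp, a fatty acid transporter, fell by 1.11 log2 units. Glycolysis genes, only 5 in number, had 3 higher and 1 lower, a called share of 80%. Ldh, lactate dehydrogenase, had 137, 126 and 125 CPM in batch 2 tetramolters, against 48.2, 50.2 and 55.4 CPM in batch 1 (log2FC 1.34, SE 0.23, adjusted p = 0.000423). Pglym was lower (adjusted p = 0.0454), a call that was lost without any 1 of the tetramolter libraries other than batch 2 replicate 1, at 0.0823 to 0.146, and without trimolter batch 2 replicates 1, 2 or 3, at 0.0627 to 0.0675, or trimolter batch 1 replicate 3, at 0.0564. Atg8, which coats autophagosomes, had 108, 141 and 114 CPM in batch 2 tetramolters, against 428, 351 and 360.4 CPM in batch 1 (log2FC -1.65, SE 0.13, adjusted p = 3.43e-06). The autophagy and cell death list as a whole had 4 higher and 2 lower of 13, a called share of 46.2%.

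Neuropeptide receptors fell in 13 of 25 cases and rose in 1, with 14 further ones too low to test. The called share was 56%, near the 58.8% of all tested genes, of which 29.7% were called lower. NGR-A2 had 0.192, 0.647 and 0.185 CPM in batch 2 tetramolters, against 8.46, 7.71 and 8.06 CPM in batch 1 (log2FC -4.54, SE 0.65, adjusted p = 6.75e-05), or -5.36 without batch 2 replicate 2. NGR-A20 had 19.2, 22.5 and 19.7 CPM in batch 2 tetramolters, against 56.1, 58.4 and 57.4 CPM in batch 1 (log2FC -1.48, SE 0.14, adjusted p = 9.82e-06). Clock genes had 3 lower of 5 and none higher, a called share of 60%, near the 58.8% of all tested genes. Per, the period protein of the circadian feedback loop, had 18.1, 18.1 and 16.4 CPM in batch 2 tetramolters, against 55.3, 47.5 and 56.4 CPM in batch 1 (log2FC -1.60, SE 0.16, adjusted p = 1.23e-05). cry2, a cryptochrome that represses the loop, had 41.3, 38.8 and 42.5 CPM in batch 2 tetramolters, against 65, 64.3 and 63.6 CPM in batch 1 (log2FC -0.65, SE 0.10, adjusted p = 0.000242). Time, whose RefSeq synonym is ea4, the timer protein of silkworm egg diapause, is counted in the clock list, and had 16.7, 20.7 and 18.8 CPM in batch 2 tetramolters, against 209, 182 and 198 CPM in batch 1 (log2FC -3.39, SE 0.18, adjusted p = 1.12e-06). Sampling hour was not stated in the labels used here. Detoxification genes went both ways, 30 higher and 27 lower of 89, close to the shares of all genes. UGT42A2, a glucosyltransferase, had 18.7, 18.4 and 24.6 CPM in batch 2 tetramolters, against 1.3, 2.14 and 1.32 CPM in batch 1 (log2FC 3.69, SE 0.29, adjusted p = 2.95e-06). GSTe4, a glutathione transferase, had 3.96, 1.43 and 1.6 CPM in batch 2 tetramolters, against 133, 118 and 109.6 CPM in batch 1 (log2FC -5.68, SE 0.54, adjusted p = 1.25e-05), or -6.30 without batch 2 replicate 1. The cytochrome P450 CYP340C1 fell by 3.33 and Cyp9g3 by 2.62 log2 units. Among chemosensory genes 9 of 21 rose and 5 fell, a called share of 66.7% against 58.8% of all tested genes. CSP11, a chemosensory protein, had 192, 304 and 225 CPM in batch 2 tetramolters, against 36, 36.7 and 34.6 CPM in batch 1 (log2FC 2.75, SE 0.37, adjusted p = 0.000122). Dsclp fell too, with 22.1, 21.9 and 19 CPM in batch 2 tetramolters, against 391, 359 and 356 CPM in batch 1 (log2FC -4.13, SE 0.27, adjusted p = 2.30e-06), and so did NGR-A23, by 2.82 log2 units.

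Ecdysteroid synthesis genes did not move together. Of 8, 6 were tested, with 2 higher and 1 lower, a called share of 50% against 58.8% of all tested genes. Cyp18a1 stands apart as the enzyme that inactivates the hormone. Nvd, Neverland, which converts cholesterol in the first step, had 5.43, 1.55 and 2.96 CPM in batch 2 tetramolters, against 0.477, 0.714 and 0.695 CPM in batch 1 (log2FC 2.38, SE 0.45, adjusted p = 0.000693). Cyp307a1, Spook, of the step that follows, had 13.5, 5.38 and 16.1 CPM in batch 2 tetramolters, against 0.273, 0 and 0.0695 CPM in batch 1, with 555 counts in batch 2 and 5 in batch 1 over the 3 libraries each. The trimolters held 2 counts in batch 2 and 1 in batch 1, so the gene passed the low-count filter only through the batch 2 tetramolters and had to differ, and its call is not read as support. Nvd had 27 counts in batch 1 tetramolters, 10 in batch 2 trimolters and 20 in batch 1 trimolters, each over 3 libraries. It too passed that filter only through the batch 2 tetramolters, so its call is not read as support either. Both early genes, the 2 called higher, were higher in every batch 2 library, although at a few CPM. Cyp306a1, Phantom, the hydroxylase of a later step, had 16.9, 19.7 and 14.3 CPM in batch 2 tetramolters, against 66.8, 61.9 and 64.5 CPM in batch 1 (log2FC -1.92, SE 0.15, adjusted p = 3.19e-06), lower in every batch 2 library. The last steps did not pass the test. Cyp302a1 (Disembodied) had 0.639, 1.43 and 1.23 CPM in batch 2 tetramolters, against 1.09, 1.57 and 1.25 CPM in batch 1 (adjusted p = 0.606). Cyp315a1 (Shadow) had 1.02, 1.17 and 1.05 CPM in batch 2 tetramolters, against 0.955, 0.785 and 0.903 CPM in batch 1 (adjusted p = 0.452). Cyp314a1 (Shade), which makes the active 20-hydroxyecdysone, had 0.894, 0.712 and 0.493 CPM in batch 2 tetramolters, against 1.16, 1.43 and 1.95 CPM in batch 1 (adjusted p = 0.0864). Cyp18a1 had 35.5, 26.7 and 23.9 CPM in batch 2 tetramolters, against 30.4, 26.8 and 25.5 CPM in batch 1 (log2FC 0.06, SE 0.16, adjusted p = 0.777), with overlapping ranges.

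In the ecdysone response 3 of 7 genes fell and none rose, all by less than 1 log2 unit. The called share was 42.9%, below the 58.8% of all tested genes. USP, the partner of the ecdysone receptor, had 97.6, 99.8 and 88.5 CPM in batch 2 tetramolters, against 168, 168 and 169 CPM in batch 1 (log2FC -0.82, SE 0.11, adjusted p = 7.98e-05), without overlap. EcR itself had 33.4, 29.8 and 23.8 CPM in batch 2 tetramolters, against 27.8, 27.2 and 28.2 CPM in batch 1 (log2FC 0.06, SE 0.17, adjusted p = 0.76), with overlapping ranges. E75, an early nuclear receptor gene, had 102, 117 and 98.2 CPM in batch 2 tetramolters, against 132, 127 and 127 CPM in batch 1 (log2FC -0.28, SE 0.11, adjusted p = 0.0441), and this call was lost without any 1 of the 3 batch 1 tetramolter libraries (0.101 to 0.13), without batch 2 replicate 1 (0.119) or 3 (0.15), and without any 1 of the 3 batch 2 trimolter libraries (0.0729 to 0.0755). Ftz-f1, a competence factor expressed between pulses, had 19.4, 12.4 and 15.8 CPM in batch 2 tetramolters, against 19.5, 21.3 and 22.2 CPM in batch 1 (log2FC -0.40, SE 0.15, adjusted p = 0.0405), and its call was lost without any 1 of the 3 batch 1 tetramolter libraries (0.0546 to 0.118), without batch 2 replicate 2 (0.156) or 3 (0.0913), without any 1 of the 3 batch 2 trimolter libraries (0.055 to 0.0563) and without batch 1 trimolter replicate 3 (0.0505). E74 had 73.2, 102 and 102 CPM in batch 2 tetramolters, against 88.5, 87.5 and 84.2 CPM in batch 1 (log2FC 0.10, SE 0.18, adjusted p = 0.658). Br-c, Broad, had 23.2, 22.3 and 22.5 CPM in batch 2 tetramolters, against 14.9, 18 and 18.6 CPM in batch 1 (log2FC 0.40, SE 0.19, adjusted p = 0.0912). Hr3 had 4.98, 3.63 and 3.26 CPM in batch 2 tetramolters, against 4.78, 5.28 and 3.75 CPM in batch 1 (log2FC -0.22, SE 0.27, adjusted p = 0.515). None of these 3 passed. Among peptides that time ecdysis, ETH, ecdysis triggering hormone, had 1.98, 2.27 and 0.924 CPM in batch 2 tetramolters, against 4.43, 2.92 and 2.85 CPM in batch 1 (adjusted p = 0.0239, but 0.119 without batch 1 replicate 1 and 0.0799 without batch 2 replicate 3). EH, eclosion hormone, had 8.12, 6.22 and 7.27 CPM in batch 2 tetramolters, against 10.5, 9.06 and 10 CPM in batch 1 (log2FC -0.45, SE 0.20, adjusted p = 0.0689). Of the 5 tested peptides 3 were lower and none higher, a called share of 60%, near that of all tested genes. The other 2 calls were also lost without a single library, Crz (adjusted p = 0.013) without batch 2 replicate 3 (0.0538), and pburs (adjusted p = 0.0191) without batch 2 replicate 3 (0.0769) or batch 1 replicate 2 (0.0696). Crz had 14 counts in batch 2 and 87 in batch 1 tetramolters, and 24 in batch 2 and 22 in batch 1 trimolters, each over 3 libraries. Crz thus passed the low-count filter mainly through the batch 1 tetramolters, and its call is not read as support.

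Juvenile hormone genes also moved in both directions. In synthesis, 4 of 7 tested genes rose and 2 fell, a called share of 85.7% against 58.8% of all tested genes. Hmg-r, HMG-CoA reductase of the mevalonate pathway, had 27.4, 27.3 and 31.5 CPM in batch 2 tetramolters, against 20.5, 17.6 and 20.7 CPM in batch 1 (log2FC 0.55, SE 0.15, adjusted p = 0.00843). Hmg-s, its synthase, had 21.5, 23.6 and 29.7 CPM in batch 2 tetramolters, against 11.5, 10.2 and 11.5 CPM in batch 1 (log2FC 1.18, SE 0.19, adjusted p = 0.000334). Fps, a farnesyl diphosphate synthase, had 109.8, 108 and 125 CPM in batch 2 tetramolters, against 255, 244 and 257 CPM in batch 1 (log2FC -1.14, SE 0.15, adjusted p = 6.94e-05), while Fpps3, of the same enzyme family, rose by 0.88 log2 units. For turnover and response, 6 of 13 rose and 3 fell, a called share of 69.2%. Jhdk, juvenile hormone diol kinase, had 961, 1087 and 1214 CPM in batch 2 tetramolters, against 515, 502 and 498 CPM in batch 1 (log2FC 1.11, SE 0.37, adjusted p = 0.0247), a call that was lost without any 1 of the 3 batch 1 tetramolter libraries (0.0584 to 0.0627) and without batch 2 replicate 2 (0.0506) or 3 (0.0685). Jheh2, an epoxide hydrolase that degrades the hormone, had 114, 113 and 107 CPM in batch 2 tetramolters, against 64.4, 75.8 and 67.4 CPM in batch 1 (log2FC 0.69, SE 0.15, adjusted p = 0.00251), without overlap. The esterase jhe1 had 40.9, 24.4 and 24.3 CPM in batch 2 tetramolters, against 46.3, 39.9 and 40.2 CPM in batch 1 (log2FC -0.50, SE 0.24, adjusted p = 0.0924), and passed without batch 2 replicate 1 (log2FC -0.79, adjusted p = 0.0121) or trimolter batch 1 replicate 3 (adjusted p = 0.0418). Of the carrier proteins, the cytosolic Cjhbp had 71.8, 75.8 and 76 CPM in batch 2 tetramolters, against 42.4, 39.8 and 39.2 CPM in batch 1 (log2FC 0.88, SE 0.10, adjusted p = 2.00e-05). hJHBP, the haemolymph form, had 37.1, 24.4 and 23.9 CPM in batch 2 tetramolters, against 88.3, 87.5 and 84 CPM in batch 1 (log2FC -1.60, SE 0.23, adjusted p = 0.000118). The hormone receptor genes went opposite ways: MET1 had 15.3, 18.3 and 18 CPM in batch 2 tetramolters, against 10.6, 11.5 and 13.1 CPM in batch 1 (log2FC 0.55, SE 0.13, adjusted p = 0.00337). BmMET2, at or under 1.46 CPM, had 0, 0.453 and 0.185 CPM in batch 2 tetramolters, against 0.819, 1.36 and 1.46 CPM in batch 1 (log2FC -2.47, SE 0.79, adjusted p = 0.0129), or -3.57 without batch 2 replicate 2. Kr-h1, the direct target that keeps a molt larval, had 55.8, 68.6 and 47.5 CPM in batch 2 tetramolters, against 68.8, 70.4 and 71.8 CPM in batch 1 (log2FC -0.30, SE 0.16, adjusted p = 0.122), and did not pass although the ranges did not overlap. Without batch 2 replicate 2 it passed (log2FC -0.44, adjusted p = 0.0355). Scr, a Hox gene of the anterior body, had 8.63, 8.61 and 7.76 CPM in batch 2 tetramolters, against 7.23, 7.49 and 6.32 CPM in batch 1 (log2FC 0.25, SE 0.16, adjusted p = 0.196), and none of the 3 tested Hox genes passed.

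**Figure D4:**
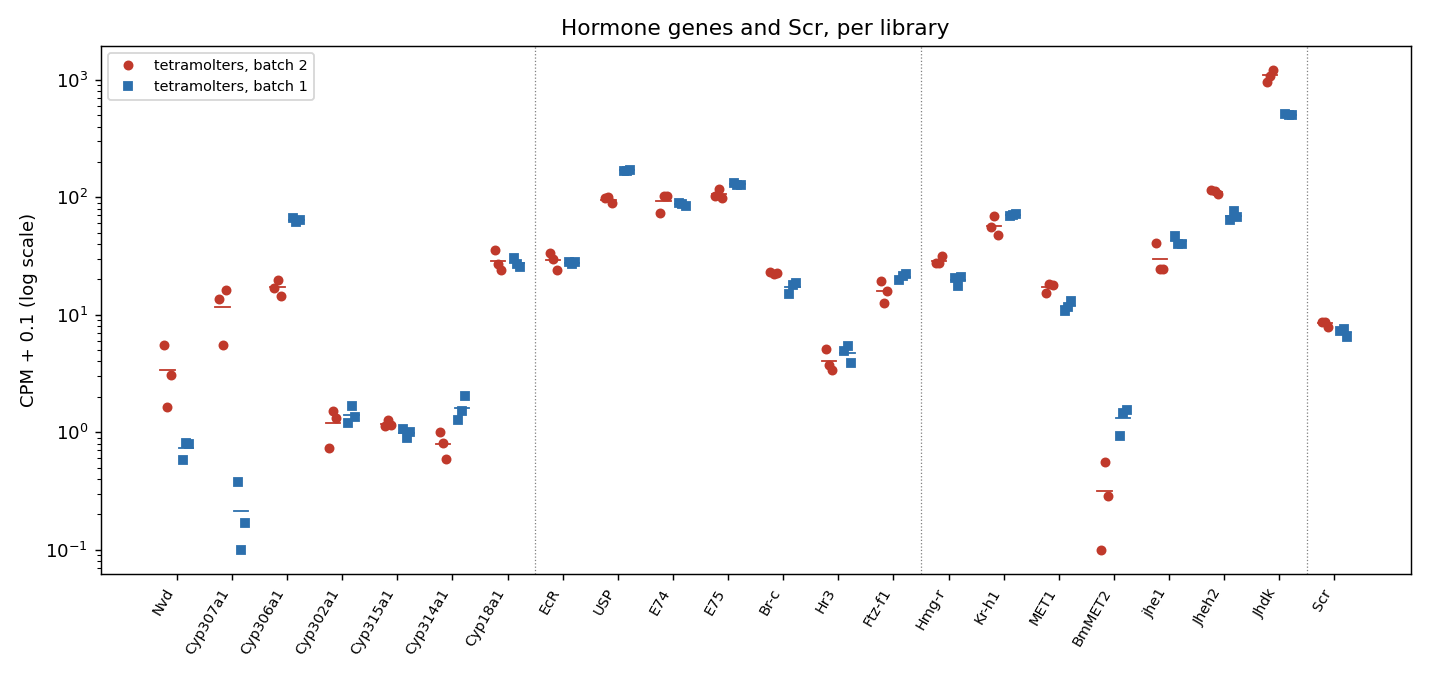
CPM plus 0.1 on a log axis in each tetramolter library for 7 genes of ecdysteroid synthesis and inactivation, 7 of the ecdysone response, 7 of juvenile hormone and Scr, separated by dotted lines; circles are the 3 batch 2 libraries, squares the 3 batch 1 libraries and bars the means. Cyp307a1 and Nvd lie higher and Cyp306a1 and BmMET2 lower in batch 2, while EcR, E74, Hr3, Cyp18a1, Cyp302a1 and jhe1 overlap between the groups.

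Most genes encoded in the mitochondrial genome fell in both the tetramolters and the trimolters, though not all by the same size. Of 11 tested, 9 were lower and none higher in batch 2 tetramolters (median -1.58), where 29.7% of all tested genes were lower. In batch 2 trimolters 8 were lower and none higher (median -1.94), where 8.03% of all tested genes were lower. ND2, a subunit of complex I and the gene with a symbol that fell most, had 0.128, 0.259 and 0.123 CPM in batch 2 tetramolters, against 40.2, 58.9 and 72 CPM in batch 1 (log2FC -8.33, SE 0.64, adjusted p = 7.78e-07), and its log2 fold change in the trimolters was -10.07 (adjusted p = 6.98e-07). ND4L had 0, 0.453 and 0.246 CPM in batch 2 tetramolters, against 17.4, 12.3 and 13.1 CPM in batch 1 (log2FC -5.89, SE 0.66, adjusted p = 7.29e-06), or -6.74 without batch 2 replicate 2, and -5.88 in the trimolters (adjusted p = 0.000805). For neither did the 2 changes differ beyond the threshold (ND2, difference 1.74, adjusted p = 0.167, SE 1.08; ND4L, difference -0.01, adjusted p = 0.951, SE 1.31). ND4 had 247, 266 and 206 CPM in batch 2 tetramolters, against 776, 675 and 693 CPM in batch 1 (log2FC -1.58, SE 0.21, adjusted p = 9.13e-05), and -1.64 in the trimolters (adjusted p = 0.00133). ND1 fell more in the trimolters, by 5.16 log2 units, than in the tetramolters, by 2.47 (difference 2.69, adjusted p = 0.000319). So did ND5 (difference 2.54, adjusted p = 0.00404) and ATP6 (difference 0.94, adjusted p = 0.0493). ND3 fell more in the tetramolters, by 2.41 log2 units, and was not called in the trimolters (log2FC -0.78, adjusted p = 0.0618). Its difference was -1.63 (adjusted p = 0.00286). COX1 and COX2, however, had overlapping ranges, COX1 with 2221, 2677 and 2580 CPM in batch 2 tetramolters, against 2300, 2046 and 2155 CPM in batch 1 (log2FC 0.20, SE 0.20, adjusted p = 0.408). The summed level, which COX1 and COX2 dominate, was 4846 to 6113 CPM in batch 2 tetramolters, against 5887 to 6775 CPM in batch 1 tetramolters, with overlap. Nuclear genes of oxidative phosphorylation did not share the fall, with 1 higher and 1 lower of 6, a called share of 33.3% against 58.8% of all tested genes. Atpsyn-beta, the catalytic subunit of ATP synthase, had 1196, 1197 and 1328 CPM in batch 2 tetramolters, against 1300, 1301 and 1325 CPM in batch 1, overlapping. Mitochondrial transcripts in a poly(A) library depend on their own tails, on the annotation and on how overlapping genes were counted, none of which was tested.

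The trimolter libraries allow a test of whether the batch difference depends on molting type, and no library is shared between these 2 contrasts. The tetramolter change differed from the trimolter change in 5764 genes (53.8%), 2878 with a positive difference (26.8%) and 2886 with a negative one (26.9%). Of the 6308 genes called in tetramolters, 5031 (79.8%) were among them. The difference contains the tetramolter change itself, so the choice of called genes favours this share, and it is not read as support. Across all tested genes the 2 sets of log2 fold changes had a Pearson correlation of -0.21 and a Spearman correlation of -0.34, given as a description, since genes are not independent and all 12 libraries share the scaling. The calls of both contrasts were shared by 1196 genes. These were 19.0% of the tetramolter calls, against 15.5% of all tested genes called in trimolters. They were 71.9% of the trimolter calls, against 58.8% of all tested genes called in tetramolters. In 988 of these the direction was opposite, 520 higher in batch 2 in tetramolters and lower in trimolters, and 468 the reverse, and in 208 it was the same. Of the 39 cuticle genes called in both, 35 were higher in batch 2 in tetramolters and lower in trimolters, and 24 ribosomal genes were lower in tetramolters and higher in trimolters. The mean level of both trimolter groups lay between those of the 2 tetramolter groups for 64.3% of the genes called in tetramolters, against 42.1% of all tested genes, a share that the choice of called genes favours.

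Among genes with a symbol, a mean of at least 1 log2 CPM over the tetramolter libraries, and tetramolter groups that do not overlap, the largest of these differences belonged to cuticle genes. CPR39 had a log2 fold change of 9.06 in tetramolters and -5.85 in trimolters (difference 14.91, adjusted p = 2.65e-05), CPR104 8.17 and -3.73 (difference 11.90, adjusted p = 1.36e-06), CPR71 7.39 and -4.02 (difference 11.41, adjusted p = 2.83e-05), and CPH7 6.97 and -3.29 (difference 10.26, adjusted p = 4.92e-06). CPR105 and CPFL3 followed, with differences of 9.52 and 9.47. In all 6 the trimolter change was a called fall. On the other side stood GSTe4, with -5.68 in tetramolters and 1.97 in trimolters (difference -7.65, adjusted p = 1.47e-05), CPH27 (difference -6.16, adjusted p = 5.44e-05), CPG19 (difference -4.96, adjusted p = 1.45e-05), Time (difference -4.61, adjusted p = 1.44e-06), yellow-11 (difference -4.54, adjusted p = 6.62e-05) and Bm122 (difference -4.51, adjusted p = 0.000945). Bm122 had 346, 333 and 374 CPM in batch 2 tetramolters, against 1653, 1810 and 1764 CPM in batch 1, and a log2 fold change of -2.31 in tetramolters and 2.20 in trimolters. Among hormone genes Cyp306a1 fell in batch 2 tetramolters by 1.92 and rose in batch 2 trimolters by 1.06 log2 units (difference -2.99, adjusted p = 3.27e-06). Cyp307a1 did not show a difference past the threshold (difference 5.80, adjusted p = 0.145, SE 2.45), with a wide error.

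**Figure D5:**
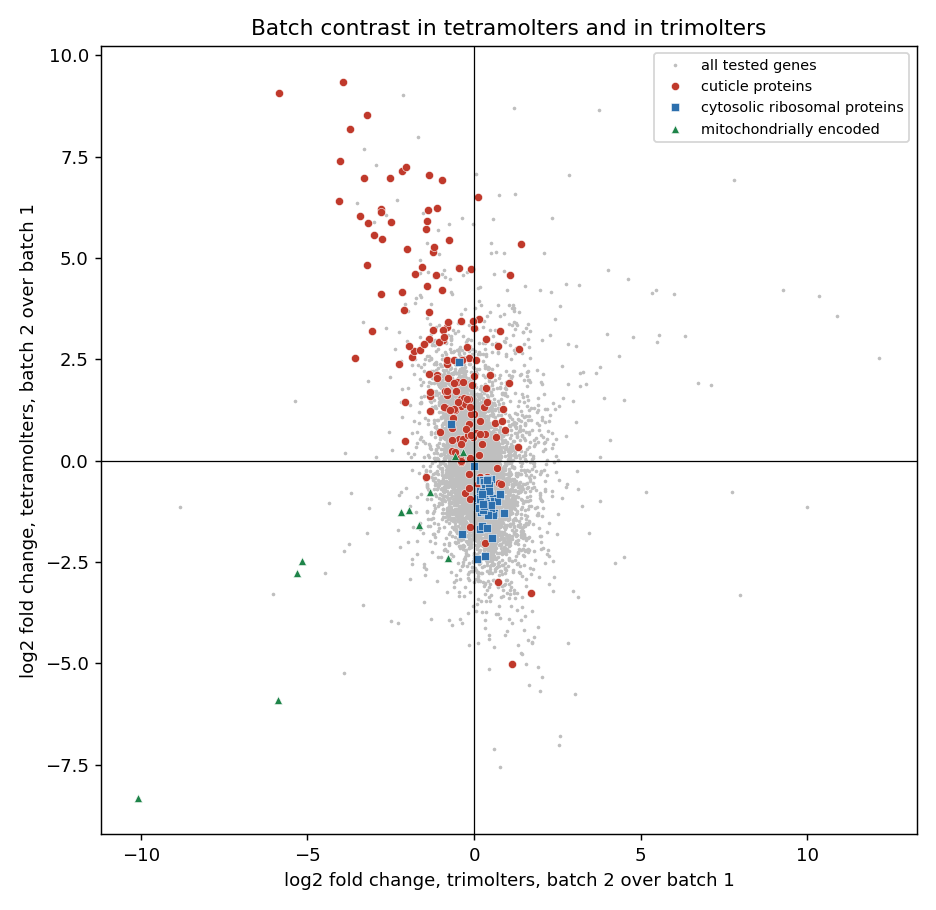
Fitted log2 fold change of batch 2 over batch 1 in tetramolters (vertical) against that in trimolters (horizontal), 1 point per tested gene, with cuticle protein genes as circles, cytosolic ribosomal protein genes as squares and mitochondrially encoded genes as triangles. Cuticle genes lie mostly above 0 and to the left, and ribosomal genes mostly below 0 and to the right. Mitochondrially encoded genes lie mostly in the lower left, where both molting types fell, with COX1 and COX2 just above 0 in tetramolters.

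Genes that moved the same way in both molting types were fewer. Of the 208, 93 were higher and 115 lower, and 169 of them gave no call for the difference. Those with a symbol numbered 32, 15 higher and 17 lower. Of all 208, 12 changed by at least 3 log2 units in both. UGT33D7, a glucosyltransferase named after its values were seen, rose by 4.11 log2 units in tetramolters and 5.99 in trimolters, with 2.68, 7.25 and 6.16 CPM in batch 2 tetramolters, against 0.341, 0.428 and 0.139 CPM in batch 1. UGT42A2 rose by 3.69 and 1.20, nAChRb3, a nicotinic acetylcholine receptor subunit, by 2.15 and 2.07, and PGRP-S1 by 2.05 and 1.10. cry2 fell by 0.65 in tetramolters and by 0.50 in trimolters (difference -0.16, adjusted p = 0.394).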

How the data were processed

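Whole cephalothorax RNA was selected on poly(A) tails and sequenced in read pairs on an Illumina NovaSeq, per the labels' protocols. The submitters' processing notes name DESeq2 1.38.3, StringTie 2.2.1, HISAT2 2.2.1 and Trimmomatic 0.39, and the labels' protocol names another HISAT2 release, while the genome build, annotation, counting tool and strand setting are not stated there. The authors deposited a table of raw counts per gene for all 12 libraries, and this was the main input. The authors also deposited FPKM values, which entered as an alternative and to estimate relative gene length, and 1 FPKM column, which held no values, was not used.

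Rows without a gene ID of the annotation, which the authors numbered in a series of their own, were dropped by the rule of the comparison. Of the 17072 rows kept, 14945 matched RefSeq gene IDs, and for 1446 the table gave a symbol that is more than a LOC number. edgeR 4.0.16 in R 4.3.3 filtered low counts by group, scaled by TMM (factors 0.939 to 1.07) and fitted 1 mean per group to all 12 libraries, with 8 residual degrees of freedom, after a test on simulated counts. SEs are of the fitted log2 fold change, and intervals on counts cover counting error only. Alternatives used DESeq2 1.42.0 and limma 3.58.1, which was also run on log2(FPKM + 1) for 9760 genes with an FPKM of at least 1 in 3 libraries.

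The comparison and the 36 gene lists were chosen with earlier results of these data known. Named genes are first, of called genes with a symbol, groups that do not overlap and a log2 CPM averaging 1 or more, the 12 that rose and the 12 that fell most; then the 4 smallest p and 2 highest levels of each list, 22 hormone genes, and the 6 largest differences from the trimolters each way. Genes without a symbol were passed over, 3 among the rises and 72 among the falls.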

Additional observations from a re-analysis of the deposited data

Results flagged for a closer look

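The batch change in tetramolters differed from that in trimolters for 5764 of the 10721 tested genes (edgeR, adjusted p under 0.05), and the results listed here were picked out because this test of the difference passed for them. The values are differences of log2 fold changes, tetramolters minus trimolters. Among genes with a symbol, a mean of at least 1 log2 CPM over the tetramolter libraries and tetramolter groups that do not overlap, the largest positive ones belonged to the cuticle protein genes CPR39 (14.9), CPR104 (11.9), CPR71 (11.4), CPH7 (10.3), CPR105 (9.52) and CPFL3 (9.47). Under the same limits the largest negative ones belonged to GSTe4 (-7.65), CPH27 (-6.16), CPG19 (-4.96), Time (-4.61), yellow-11 (-4.54) and Bm122 (-4.51).

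Among hormone genes the difference was positive for Nvd (3.41), Hmg-r (1.07), Jheh2 (1.05), MET1 (0.949), E74 (0.74) and Br-c (0.705), and for the Hox gene Scr (0.835). It was negative for BmMET2 (-4.85), Cyp306a1 (-2.99) and USP (-0.558). Of these, E74, Br-c and Scr passed the test of the difference without passing the test within tetramolters. Nvd passed the low-count filter only through the batch 2 tetramolters, so its difference is not read as support. The batch 1 trimolter libraries, which enter every one of these differences, were the most variable group. With each of them left out in turn, as with each other library, the count of genes with a difference stayed between 5212 and 6318.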

How the results depend on the processing

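The count of genes called in tetramolters was 6308, and lay between 6215 and 7004 over the alternatives that kept all libraries of the groups fitted: 6311 with RLE factors, 6307 with upper quartile factors, 6215 without a filter, 7004 with the tetramolter groups alone, 6320 with the length trend removed, 6401 with DESeq2, 6301 with limma-voom and 6378 with limma on FPKM. Leaving out 1 library at a time gave 5526 to 6842 calls, 2919 to 3237 of at least 1 log2 unit, and 5212 to 6318 for the difference from the trimolters. Of the 6308 calls, 86.2% to 99.9% were made again under each alternative, all in the same direction. Replicate numbers did not pair the libraries, since same-numbered libraries of the tetramolter groups deviated with correlations of -0.00323, 0.0229 and -0.0246, and the replicate block gave 6219 calls.

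Of the values of named genes, 97 lost and 57 gained the threshold and 27 changed sign, and every sign change was in a value that had not passed the test. For these the cause was not tested. CPH4 (-0.00) became 0.0196 with RLE and with DESeq2, 0.0129 without a filter, 0.0245 with tetramolters alone, 0.0747 with the length trend removed and 0.0529 on FPKM. With upper quartile factors E74 became -0.0105, EcR -0.0416, Cyp18a1 -0.0473 and ACBP-like -0.0660. Cyp4g25 became 0.0142 with the length trend removed and 0.0109 on FPKM. The difference from the trimolters became 0.0144 for ND4L with RLE, 0.0271 without a filter, 0.37 with the length trend removed and 0.133 with DESeq2, and 0.0200 for Cyp302a1 with the length trend removed. Leaving out 1 library gave -0.0463 to 0.193 for EcR, -0.121 to 0.178 for Cyp18a1, -0.468 to 0.0307 for Cyp302a1, -0.0859 to 0.0784 for CPH4, -0.0371 to 0.0969 for ACBP-like and -0.776 to 0.591 for Fib-l, and for the differences -0.855 to 0.859 for ND4L, -0.233 to 0.201 for Hr3 and -0.318 to 0.331 for Cyp302a1.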
